A study of Homo sapiens with 89 samples.

Results

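SHEP is a human neuroblastoma line of the mesenchymal type, without amplified MYCN. Its polyadenylated RNA was sequenced in 3 libraries labelled MYCN 3A and 3 libraries labelled as having no MYCN, out of 89 samples of the series. The comparison covered all 57905 genes of the count table, of which 14923 had enough counts to be tested. MYCN 3A is, per the labels, a triple mutant that is deficient in RNA binding, made from a construct that doxycycline switches on. The MYCN 3A cells had 1 µg/ml doxycycline and the no MYCN cells had none, so the drug and the construct cannot be told apart in this comparison. A group of 3 libraries with wild type MYCN, with the same dose of doxycycline, was used to ask where the mutant differs from the intact protein. The labels do not say whether libraries came from separate cultures, whether a line is 1 clone, or which construct the no MYCN cells carry. The p-values therefore measure the spread between these libraries, which may be technical.

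MYCN belongs to the MYC family of transcription factors. As a dimer with MAX it binds E-boxes, short DNA motifs of which CACGTG is the preferred form, and it is known for raising genes of ribosome production, nucleotide synthesis and mitochondria in neuroblastoma. The nuclear exosome is an RNA-degrading complex with a ring of core subunits and the catalytic subunit EXOSC10, and the title of the series names MYCN as an accessory protein of that complex. Setting MYCN 3A against no MYCN asks which transcripts differ when the form deficient in RNA binding is made.

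The 6 libraries held 11638859 to 15353505 counts each, and 1.49 to 2.7% of them were on mitochondrial genes. Levels are given in CPM, read counts relative to the size of the library after TMM scaling between libraries, and changes as log2 fold changes with their standard error (SE). A gene was called where edgeR's quasi-likelihood test gave a Benjamini-Hochberg adjusted p under 0.05. The sums over marker lists below are the exception: they are CPM by library totals, without TMM scaling. The TMM factors were 1.029 to 1.052 in the no MYCN and 0.9506 to 0.9806 in the MYCN 3A libraries. TMM scaling would therefore lower the no MYCN sums and raise the MYCN 3A sums, so gaps between these sums depend on the scaling. Mesenchymal markers of SHEP, such as VIM and CD44, summed to 5643 to 5999 CPM in the no MYCN libraries and 5079 to 5428 CPM in the MYCN 3A libraries, and 4 of the 9 tested were lower (CD44, FN1, YAP1 and CDH2), CD44 not when no MYCN replicate 1 was dropped or with the trend on transcript length removed (-0.09, edgeR adjusted p = 0.408). The catecholamine enzymes TH and DBH of adrenergic neuroblastoma were at 0 in all 6. The sums over marker lists in the no MYCN and the MYCN 3A libraries were 13.2 to 15.9 and 9.97 to 14 CPM for leukocytes, 3.18 to 4.30 and 2.41 to 4.82 for epithelium, 11.5 to 14.5 and 7.30 to 9.73 for endothelium, and 155 to 170.4 and 141 to 152 for Schwann cells and glia. The called gene among these was TIE1, an endothelial receptor, which was lower with MYCN 3A but not with the trend on transcript length removed, with DESeq2, or without no MYCN replicate 2 or 3 or MYCN 3A replicate 1 or 3.

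MYCN itself (ENSG00000134323, chromosome 2, 16080686 to 16087129, hg19) had 10, 0 and 0 counts in the 3 MYCN 3A libraries, 4, 0 and 0 in the no MYCN libraries and 2, 0 and 0 with wild type MYCN. If counts were independent, a count of 0 would allow up to 3 counts as counting error alone, or 0.195 to 0.258 CPM by library totals in the 6 libraries. Both read ends of a pair appear to be counted, so the bound is likely higher. MYCN was not tested, and the counts do not show the construct in any library, so the identity of the groups rests on the labels. MYC, the family member that SHEP expresses, had 11.6, 12.6 and 10.0 CPM without MYCN and 4.77, 4.83 and 3.00 CPM in the libraries labelled MYCN 3A. The groups did not overlap, and MYC fell with a log2 fold change of -1.44 (SE 0.22, edgeR adjusted p = 9.8e-05). With wild type MYCN it had 5.30, 8.31 and 6.78 CPM. The mutant was below the wild type by a log2 difference of -0.69 (SE 0.23, edgeR adjusted p = 0.0245), which missed the threshold when some single library was dropped (edgeR adjusted p up to 0.139).

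The promoters of 4 genes that rose are shown because each holds CACGTG. The sequences are from RefSeq, build GRCh38.p14, and run from 250 bases before the start of the gene to the start base. They are written 5′ to 3′ on the strand of the gene, with CACGTG in capitals and positions counted from 1 at the start base, negative before it. RRP9 (chr3:51941904-51942154, minus strand) encodes a protein of the U3 snoRNP that processes ribosomal RNA, NTHL1 (chr16:2047834-2048084, minus strand) a DNA glycosylase of base excision repair, EIF3K (chr19:38618938-38619188, plus strand) a subunit of translation initiation factor eIF3, and EXOSC5 (chr19:41397359-41397609, minus strand) a core subunit of the exosome.
RRP9: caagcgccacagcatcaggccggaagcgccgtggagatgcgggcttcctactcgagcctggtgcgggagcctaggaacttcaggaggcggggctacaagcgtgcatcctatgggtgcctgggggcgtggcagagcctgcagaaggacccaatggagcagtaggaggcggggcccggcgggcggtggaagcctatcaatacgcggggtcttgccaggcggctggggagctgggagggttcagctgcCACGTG
NTHL1: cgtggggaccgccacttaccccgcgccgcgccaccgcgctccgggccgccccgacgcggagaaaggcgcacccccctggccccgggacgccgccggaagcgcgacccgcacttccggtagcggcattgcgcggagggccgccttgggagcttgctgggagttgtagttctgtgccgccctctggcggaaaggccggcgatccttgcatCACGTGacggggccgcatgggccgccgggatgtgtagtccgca
EIF3K: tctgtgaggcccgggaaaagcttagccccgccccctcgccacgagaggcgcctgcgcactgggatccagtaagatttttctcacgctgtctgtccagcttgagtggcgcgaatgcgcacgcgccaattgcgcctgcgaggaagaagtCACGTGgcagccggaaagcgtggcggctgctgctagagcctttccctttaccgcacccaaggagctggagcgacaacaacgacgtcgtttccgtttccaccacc
EXOSC5: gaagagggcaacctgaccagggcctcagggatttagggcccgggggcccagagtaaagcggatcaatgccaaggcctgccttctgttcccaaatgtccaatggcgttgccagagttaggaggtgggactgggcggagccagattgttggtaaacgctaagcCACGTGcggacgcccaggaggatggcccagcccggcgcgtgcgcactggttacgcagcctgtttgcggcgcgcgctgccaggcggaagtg
The motif began at position -5 in RRP9, -42 in NTHL1, -103 in EIF3K and -89 in EXOSC5, which had another match at position 15. Other genes that rose and hold the motif include FBL at 7 and NME1 at 35, both after the start, and SLC7A5 at -130 and SNHG7 at -122.

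RefSeq promoters, from 250 bases before to 50 bases after the start, were at hand for 10147 of the tested genes. CACGTG, which is its own reverse complement so that 1 search covers both strands, was in 10.1% of them. The share was 13.9% among 1403 genes that rose with MYCN 3A and 8.48% among 1509 that fell. It was 35.9% in the 92 promoters of the MYC target and ribosome biogenesis lists, and 32.3% in the 62 of these whose genes rose. The wider form CANNTG, which includes CACGTG, was in 59.6% of all, 60.2% of the higher and 57.5% of the lower genes. A match describes the letters of the window and not binding, and no test was made of these shares. In 3 classes of exonic length the share with CACGTG was 13.6 to 14% of the higher and 8.05 to 8.59% of the lower genes.

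With MYCN 3A, 1893 genes were higher (12.7% of those tested) and 1913 were lower (12.8%). The median size of a called change was 0.48 on the log2 scale, and 59 genes rose (0.395%) and 168 fell (1.13%) at least 2-fold. The ranges of the 3 and 3 libraries did not overlap in 41.3% of tested genes. Scaling by library totals in place of TMM moved the median of all tested genes from -0.04 to -0.14 and the calls to 1232 higher and 2928 lower. Without no MYCN replicate 1, 1144 were higher and 1022 lower, and lower calls also dropped to 1227 without no MYCN replicate 2 and 1235 without MYCN 3A replicate 3.

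Among the transcripts that rose most were those of a muscle ubiquitin ligase, of a mitochondrial protein and of a retrotransposon-derived gene. TRIM55, the ubiquitin ligase, had 51.9, 45.6 and 45.6 CPM without MYCN and 191, 194 and 186 CPM with MYCN 3A. PPIF, cyclophilin D of the mitochondrial matrix, had 235, 242 and 271 against 598, 706 and 732 CPM. PEG10, an imprinted gene derived from a retrotransposon, had 17.6, 18.2 and 17.4 against 45.3, 46.4 and 37.5 CPM. In all 3 genes every MYCN 3A library lay above every no MYCN library. The rule that picked the largest changes required ranges apart and a call. Log2 fold changes were 1.99 (SE 0.09) for TRIM55, 1.45 (SE 0.09) for PPIF and 1.28 (SE 0.15) for PEG10, with edgeR adjusted p of at most 6.3e-06. FABP5, a fatty acid binding protein, and ECE2, an endothelin-converting enzyme, rose by 1.28 each. The other large rises were PHLDA2 at 1.17, an imprinted growth regulator of the placenta, MCRIP2 at 1.03, UNC5C at 1.01, a netrin receptor, RRP9 at 1.00, CENPV at 0.98, a centromere protein, and NTHL1 at 0.96.

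The falls included an adhesion receptor and fibrillar collagens. ADGRG1, an adhesion G protein-coupled receptor, had 17.7, 19.2 and 13 CPM without MYCN and 5.15, 3.34 and 4.57 CPM with MYCN 3A. AHNAK2, a very large scaffold protein, went from 45.4, 39.6 and 36.3 to 16.7, 12.5 and 11.8 CPM. COL5A1, a chain of the fibril-regulating collagen V, went from 229, 241 and 216 to 90.2, 101 and 105 CPM. The groups were apart in all 3, which the rule that picked them required. Log2 fold changes were -1.93 (SE 0.22), -1.56 (SE 0.15) and -1.21 (SE 0.12), with edgeR adjusted p of at most 5.6e-06. COL1A2, a collagen I chain, changed by -1.20, B3GNT9, a glycosyltransferase, by -1.18, IQGAP3, a scaffold of cytokinesis and small GTPase signalling, by -1.17 and HBP1, a transcriptional repressor of the cell cycle, by -1.11. SSBP2, PHF1 and CLSTN3 each changed by -1.13. ARCN1, the delta subunit of the COPI vesicle coat, changed by -1.69 with a wide error (SE 0.46, edgeR adjusted p = 0.0283), and it missed the threshold when no MYCN replicate 1 or 2 or MYCN 3A replicate 2 or 3 was dropped (edgeR adjusted p up to 0.103). ARCN1 also missed it with no filter on low counts and with the trend on transcript length removed (-1.67, edgeR adjusted p = 0.0569). The read-through gene SPECC1L-ADORA2A changed by -1.08 (SE 0.31, edgeR adjusted p = 0.0231), and missed the threshold when no MYCN replicate 1 or MYCN 3A replicate 1 or 3 was dropped. It shares sequence with SPECC1L and ADORA2A, and reads that overlap several genes were counted for each, so the value is uncertain.

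**Figure D1:**
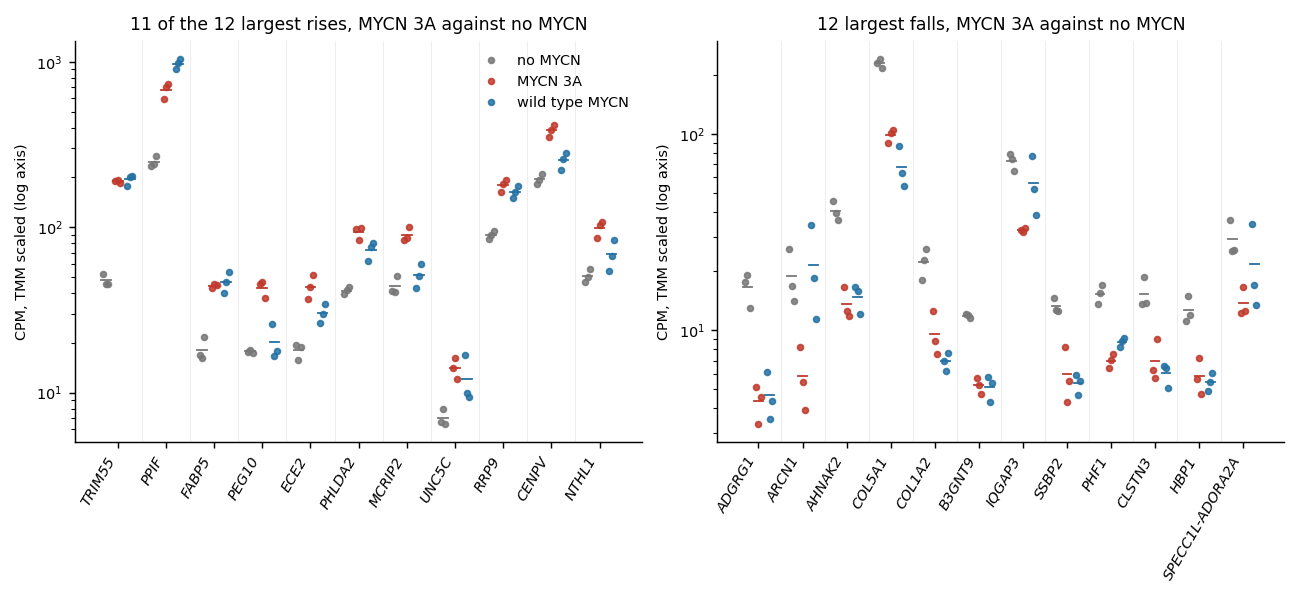
Levels in CPM (log axes) of 11 of the 12 genes that rose most and of the 12 that fell most with MYCN 3A, in each of 3 no MYCN (grey), 3 MYCN 3A (red) and 3 wild type MYCN libraries (blue). Short lines are group means. Genes were picked among those with red and grey ranges apart, so the lack of overlap between these points is not a result. In TRIM55 the MYCN 3A libraries, at 186 to 194 CPM, lie among the wild type ones.

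Genes that MYC proteins are known to raise went up with the mutant. Of 55 tested MYC family targets, 40 were higher and 2 lower (72.7% and 3.64%, against 12.7% and 12.8% of all tested genes), with a median log2 fold change of 0.43 where all tested genes had -0.04. NPM1, a nucleolar chaperone of ribosome assembly, had 1895, 1773 and 1860.0 CPM without MYCN and 3220.1, 3382 and 3129 CPM with MYCN 3A. The groups lay far apart, and NPM1 rose by 0.82 (SE 0.08, edgeR adjusted p = 1.5e-06). NOP16, a nucleolar protein, rose by 0.89, PUS1, a pseudouridine synthase, by 0.81 and NDUFAF4, an assembly factor of respiratory complex I, by 0.78.

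The machinery that makes ribosomes rose with them. In the ribosome biogenesis list 33 of 52 tested genes were higher (63.5%, against 12.7% of all tested genes) and 0 lower, with a median of 0.32. FBL, the methyltransferase fibrillarin, had 339, 357 and 379.7 CPM without MYCN and 538, 587 and 674 CPM with MYCN 3A, a rise of 0.74 (SE 0.10) with no overlap. RRP1 rose by 0.80, NIFK by 0.63, the helicase DDX10 by 0.59 and the GTPase GTPBP4 by 0.52. Of 28 genes for RNA polymerases I and III and their factors, which make ribosomal RNA and transfer RNA, 10 were higher (35.7%) and 0 lower, with a median of 0.14. POLR3K rose by 0.80, GTF3A, the 5S rRNA gene factor, by 0.63, POLR1C by 0.60 and POLR1E by 0.42. POLR3G, the polymerase III subunit of stem and tumor cells, rose by 0.59 with MYCN 3A and by 1.13 with wild type MYCN, and the mutant was below the wild type (log2 difference -0.55, SE 0.08, edgeR adjusted p = 4.7e-05).

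Both forms were set against the same no MYCN libraries, so their changes are not independent and are given side by side. In the MYC target list wild type MYCN had 32 higher and 0 lower with a median of 0.31 (over all tested genes the wild type had 10.9% higher and 11.3% lower), and in ribosome biogenesis 25 higher and 1 lower with a median of 0.22. The direct contrast of MYCN 3A with wild type MYCN, which uses the same MYCN 3A libraries again, called 15 MYC targets higher and 6 lower in the mutant, and 12 and 6 ribosome biogenesis genes, where 14.5% and 15.8% of all tested genes were called higher and lower. Leaving out single libraries gave 10 to 17 higher and 4 to 8 lower MYC targets, and 6 to 18 higher and 3 to 7 lower ribosome biogenesis genes. Over the 3 MYCN 3A libraries the MYC target median was 0.40, 0.42 and 0.48 above the no MYCN mean on the log2(CPM + 1) scale, and over the 3 wild type libraries 0.30, 0.26 and 0.32.

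Genes for cytosolic ribosomal proteins were higher nearly throughout: 66 of 78 tested (84.6%) and 0 lower, with a median of 0.42 and single values from 0.11 to 0.63. RPL9 had 527, 515 and 573 CPM without MYCN and 782, 785 and 865 CPM with MYCN 3A, and 495, 579 and 652 CPM with wild type MYCN. The MYCN 3A libraries were above all 6 others, and RPL9 rose by 0.59 (SE 0.09, edgeR adjusted p = 1.2e-04). RPL24 rose by 0.63, RPL36 by 0.56, and RPL26 and RPL35A by 0.52. With wild type MYCN, 10 of the 78 were higher and 1 lower, with a median of 0.14, where 10.9% of all tested genes were higher. Set against the wild type, 36 were higher and 0 lower in the mutant, and 25 to 56 were higher when single libraries of any of the 3 groups were left out. Ribosomal protein genes have many pseudogene copies, and how the counting treated reads that fit several copies is not given in the sources used here, so values of single genes are uncertain.

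Nuclear genes of the mitochondrial respiratory chain and of the mitochondrial ribosome moved in the same way. Of 63 respiratory chain subunits 49 were higher and 1 lower (77.8% and 1.59%, against 12.7% and 12.8% of all tested genes), with a median of 0.46. NDUFS5, a complex I subunit, had 228, 234 and 261 CPM without MYCN, 385, 406 and 427 CPM with MYCN 3A and 237, 296 and 330.1 CPM with wild type MYCN. Again the MYCN 3A libraries were above all others, with a rise of 0.75 over no MYCN (SE 0.10, edgeR adjusted p = 2.4e-05) and of 0.50 over wild type (SE 0.10, edgeR adjusted p = 6.2e-04). ATP5F1D, the delta subunit of ATP synthase, rose by 0.80, NDUFB9 of complex I by 0.69, and UQCRH and UQCRFS1 of complex III by 0.61 and 0.59. Among 73 mitochondrial ribosomal proteins 58 were higher (79.5%) and 0 lower, with a median of 0.43. MRPL1 rose by 0.80, MRPL14 by 0.73, MRPL15 and MRPS12 by 0.68 and MRPL34 by 0.58.

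With wild type MYCN the counts were 9 higher and 2 lower in the respiratory chain (median 0.07) and 16 and 1 in the mitochondrial ribosome (median 0.12), against 10.9% and 11.3% of all tested genes. Against the wild type 42 respiratory chain genes were higher and 0 lower in the mutant, and 47 and 1 mitochondrial ribosome genes. Leaving out single libraries gave 32 to 48 and 28 to 52 higher. Wild type replicate 1 stood low in these lists: the respiratory chain median was -0.14, 0.09 and 0.21 in the 3 wild type libraries and 0.39, 0.47 and 0.48 in the MYCN 3A libraries. The 13 genes of the mitochondrial genome did not share the rise. Their median was 0.30, -0.78 and -0.41 in the 3 MYCN 3A libraries and 0.01, 0.29 and -0.33 in the no MYCN libraries, so the groups overlapped. MT-ND4L fell by -0.69 (SE 0.16, edgeR adjusted p = 0.00507), 0 were higher, and without MYCN 3A replicate 1, 8 of the 13 were lower.

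Other parts of protein production and turnover had smaller shares of higher genes than the ribosomal protein and mitochondrial lists. These shares were still above those over all tested genes, where 12.7% were higher and 12.8% lower. Of 41 translation initiation factors 19 were higher and 3 lower (46.3% and 7.32%, median 0.21), with EIF3M and EIF3K each at 0.63 and EIF4EBP1, the inhibitor of the cap-binding factor, at 0.57. Among heat shock proteins and chaperonin subunits 12 of 30 were higher and 3 lower (40% and 10%), and TRAP1, a mitochondrial chaperone, rose by 0.55 and CCT4, a chaperonin subunit, by 0.46. In the proteasome 12 of 31 subunit genes were higher (38.7%) and 0 lower, and 7 were higher without no MYCN replicate 1 or without MYCN 3A replicate 3. PSMA3 rose by 0.52 with MYCN 3A and had -0.05 with wild type MYCN. PSMB10, a subunit of the immunoproteasome, had 42.2, 38.7 and 49.7 CPM against 67.3, 72.7 and 74.6 CPM, a rise of 0.72 (SE 0.12, edgeR adjusted p = 2.9e-04).

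Metabolic lists moved in part. Nucleotide and polyamine enzymes had 11 of 33 higher and 2 lower (33.3% and 6.06%, against 12.7% and 12.8% of all tested genes). They had 7 higher without no MYCN replicate 1 or 2. The nucleoside diphosphate kinases NME1 and NME2 rose by 0.69 and 0.63, and IMPDH1 of guanine nucleotide synthesis by 0.60. The counted spans of NME1 and NME2 overlap on chromosome 17 (49230897 to 49239789 and 49230920 to 49249108), and the genes are close copies. Reads that overlap several genes were counted for each, so their values may share reads and cannot be taken as independent. MTHFD2, the mitochondrial folate enzyme, rose by 0.49 and GCSH of glycine cleavage by 0.80. In the integrated stress response, run by ATF4, 7 of 28 were higher (25%) and 0 lower, with a median of 0.10. Among the 7 were the amino acid transporter chains SLC3A2 at 0.49 and SLC7A5 at 0.41 and the asparagine synthetase ASNS at 0.47. Wild type MYCN had 12 higher and 3 lower of these 28, and SLC7A5 was lower in the mutant than in the wild type (log2 difference -0.56, SE 0.08, edgeR adjusted p = 1.9e-05).

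**Figure D2:**
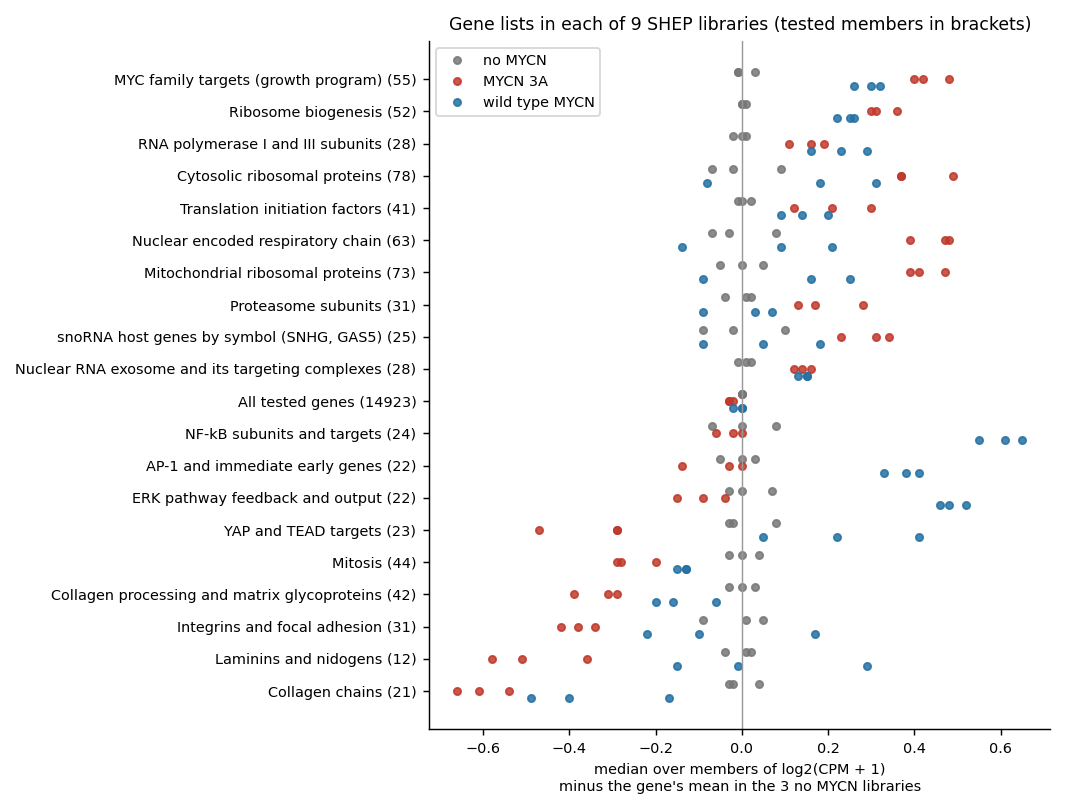
For each gene list, the median over its tested members (numbers in brackets) of log2(CPM + 1) minus the mean of the 3 no MYCN libraries, with 1 point a library in grey for no MYCN, red for MYCN 3A and blue for wild type MYCN. The MYCN 3A points lie to the right of the others for ribosomal proteins, respiratory chain and mitochondrial ribosome, and to the left for integrins, laminins, mitosis and YAP targets, while for NF-kB, AP-1 and ERK lists they lie between -0.15 and 0.00 and the wild type points at 0.33 or more.

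Collagens and other matrix genes fell. Of 21 tested collagen chains 13 were lower (61.9%, against 12.8% of all genes) and 0 higher, with a median of -0.56. COL1A1, the main chain of collagen I, had 1463, 1610.3 and 1486 CPM without MYCN, 738, 848 and 875 CPM with MYCN 3A and 500.2, 399 and 405 CPM with wild type MYCN. The 3 groups did not overlap, and the mutant stood between the others. COL1A1 fell by -0.89 with MYCN 3A (SE 0.09, edgeR adjusted p = 2.5e-06) and by -1.81 with the wild type, and the mutant was above the wild type by 0.92 (SE 0.09, edgeR adjusted p = 3.6e-07). COL5A1 was above the wild type too (0.53, SE 0.12, edgeR adjusted p = 0.00174). COL4A1, a basement membrane collagen, changed by -0.91, COL5A2 by -0.71 and COL6A1 by -0.72. COL6A3 went from 21.3, 21.8 and 20.4 to 11.2, 10.5 and 9.14 CPM with MYCN 3A, with 32.9, 20.9 and 15.3 CPM in the wild type libraries, and was below both groups. Wild type MYCN had 3 collagen chains higher and 10 lower. The direct contrast called 4 higher and 8 lower in the mutant, or 4 to 8 lower when single libraries were left out, and 7 higher and 5 lower with the trend on transcript length removed.

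Of 42 collagen-processing enzymes and matrix glycoproteins 23 were lower and 2 higher (54.8% and 4.76%, against 12.8% and 12.7% of all tested genes), with a median of -0.34. FN1, fibronectin, had 608, 543 and 482 CPM without MYCN and 289.8, 277 and 254 CPM with MYCN 3A. THBS1, thrombospondin 1, had 1052, 907 and 911 against 518, 499 and 367 CPM. Both groups were apart in each gene, with log2 fold changes of -0.99 (SE 0.12) and -1.05 (SE 0.12). LOXL2, a collagen cross-linking oxidase, changed by -0.80, TGFBI, a matrix adhesion protein, by -0.79 and SPARC, a collagen-binding glycoprotein, by -0.47. TGFBI and SPARC fell further with wild type MYCN, by -1.59 and -0.84, and were higher in the mutant than in the wild type (0.80 with SE 0.09 and 0.37 with SE 0.08). LOXL2 and THBS1 were lower in the mutant than in the wild type, by -0.59 (SE 0.10) and -0.56 (SE 0.12). Of 12 laminins, nidogens and other basement membrane genes 6 were lower (50%) and 0 higher, among them LAMC1 at -0.79, NID1 at -0.69 and HSPG2, the proteoglycan perlecan, at -0.75. Compared with the wild type, 7 of the 12 were lower and 0 higher in the mutant, or 4 to 8 lower when single libraries were left out, and 2 higher and 5 lower with the length trend removed.

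Receptors and anchors of the matrix fell with it. In the integrin and focal adhesion list 17 of 31 were lower (54.8%, against 12.8% of all tested genes) and 0 higher, with a median of -0.41. Without no MYCN replicate 1, 11 were lower. ITGA5, the fibronectin receptor subunit, had 125, 138 and 119 CPM without MYCN, 71.5, 73.1 and 75.2 CPM with MYCN 3A and 131, 111 and 98.1 CPM with wild type MYCN. TLN1, talin, which links integrins to actin, had 282, 261 and 240.4 CPM, then 148, 148 and 171 CPM, and 388, 283 and 251 CPM. In both genes the MYCN 3A libraries were below all 6 others. ITGA5 changed by -0.80 (SE 0.10), TLN1 by -0.75 (SE 0.12), ITGB1 by -0.71 (SE 0.12) and ITGA3 by -0.60 (SE 0.09). With wild type MYCN 3 were higher and 6 lower, and the direct contrast called 3 higher and 18 lower in the mutant (13 to 18 lower with single libraries left out). Of 26 actin and contractile genes 8 were lower and 2 higher (30.8% and 7.69%), or 5 lower without no MYCN replicate 2, with MYH9, a nonmuscle myosin, at -0.57 and TPM2, a tropomyosin, at 0.59.

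Targets of YAP, the coactivator that the Hippo pathway controls, and of its DNA-binding partner TEAD went in different directions with the 2 forms. With MYCN 3A 12 of 23 were lower and 1 higher (52.2% and 4.35%, median -0.40), against 12.8% and 12.7% of all tested genes. Without no MYCN replicate 1, 7 were lower. With wild type MYCN 9 were higher and 1 lower (median 0.24), against 10.9% and 11.3% of all tested genes. AXL, a receptor tyrosine kinase, had 606, 612 and 595 CPM without MYCN, 443, 427 and 421 CPM with MYCN 3A and 938, 852 and 803 CPM with wild type MYCN. The 3 groups did not overlap, with MYCN 3A lowest and the wild type highest. AXL changed by -0.49 against no MYCN (SE 0.08, edgeR adjusted p = 1.8e-04) and by -1.01 against the wild type (SE 0.08, edgeR adjusted p = 7.7e-09). The membrane protein MYOF changed by -0.72 and -1.06 in these contrasts, AMOTL2, an angiomotin, by -0.53 and -0.80, and CRIM1, a transmembrane regulator of BMP signals, by -0.78 and -0.93. In the direct contrast 15 of the 23 were lower and 0 higher in the mutant, or 14 to 15 lower with single libraries left out. YAP1 itself fell by -0.56 (SE 0.12, edgeR adjusted p = 0.00156).

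The TGF-beta list had 8 of 30 lower and 3 higher (26.7% and 10%, against 12.8% and 12.7% of all tested genes). SMAD3, a signal transducer of the pathway, had 37.7, 33.0 and 34.8 CPM without MYCN and 19.7, 22.6 and 20 CPM with MYCN 3A. The groups were apart, with a change of -0.76 (SE 0.13, edgeR adjusted p = 2.9e-04), and SMAD3 was below wild type MYCN by -0.92 (SE 0.13). Of 24 neurotrophin receptor and axon guidance genes 10 were lower and 1 higher (41.7% and 4.17%), or 5 lower without no MYCN replicate 2. NRP1, a receptor for semaphorins and VEGF, changed by -0.67 with MYCN 3A and by 0.49 with wild type MYCN, with a direct log2 difference of -1.17 (SE 0.12, edgeR adjusted p = 2.0e-07). SLIT3, a guidance ligand, changed by -0.81 and -1.29.

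Part of the genes of mitosis fell. Of 44 mitosis genes 25 were lower (56.8%, against 12.8% of all tested genes) and 2 higher, with a median of -0.28. Without no MYCN replicate 1 or 2 or MYCN 3A replicate 2, 12 to 16 were lower. KIF20A, a kinesin of cytokinesis, had 139.8, 141 and 128 CPM without MYCN and 108, 81.9 and 86.6 CPM with MYCN 3A. PRC1, which bundles microtubules of the spindle midzone, had 277, 280.1 and 258 against 207, 206 and 202 CPM. The groups were apart in both, with changes of -0.57 (SE 0.10) and -0.41 (SE 0.08). PRC1 had 291, 278 and 272 CPM with wild type MYCN, and the mutant was lower (-0.45, SE 0.08, edgeR adjusted p = 1.4e-04). KIF14 changed by -0.62, NUSAP1 by -0.49 and the checkpoint kinase BUB1 by -0.44. Wild type MYCN had 12 of the 44 lower and 2 higher. Of 38 genes for G1/S and DNA replication 12 were higher (31.6%, against 12.7% of all genes) and 1 lower, with GINS3 at 0.58, PRIM1, the primase, at 0.40 and PCNA, the polymerase clamp, at 0.33. That count was 4 to 6 without no MYCN replicate 1 or 2 or MYCN 3A replicate 2 or 3, and the call of PRIM1 was lost without MYCN 3A replicate 1. PCNA had 0.16 (edgeR adjusted p = 0.106) with the trend on transcript length removed.

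Lists of inflammatory and growth factor signalling that rose with wild type MYCN did not have that pattern with MYCN 3A. Among 24 NF-kB subunits and targets 1 was higher and 2 lower with the mutant (4.17% and 8.33%, median -0.10), against 12.7% and 12.8% of all tested genes. The wild type had 16 higher and 1 lower (median 0.69), against 10.9% and 11.3% of all tested genes. BIRC3, an inhibitor of apoptosis and NF-kB target, had 16.3, 13.3 and 11.4 CPM without MYCN, 18.4, 19.7 and 15.3 CPM with MYCN 3A and 66.1, 66.6 and 69.4 CPM with wild type MYCN. The no MYCN and MYCN 3A ranges overlapped and the wild type lay far above both. The change of BIRC3 with MYCN 3A missed the threshold (0.38, SE 0.14, edgeR adjusted p = 0.0518). With the trend on transcript length removed BIRC3 was called higher (0.53, SE 0.13, edgeR adjusted p = 0.00479), and the list had 2 higher and 1 lower. For BIRC3 the mutant was below the wild type by -1.92 (SE 0.13, edgeR adjusted p = 9.9e-10). TRAF1, a signalling adaptor, had -0.49 (SE 0.19, edgeR adjusted p = 0.0542) and was below the wild type by -2.01. Compared with the wild type, 16 of the 24 were lower and 1 higher in the mutant, with 13 to 16 lower when single libraries were left out.

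The AP-1 and immediate early list had 5 of 22 higher and 1 lower with MYCN 3A (22.7% and 4.55%, against 12.7% and 12.8% of all tested genes). It had 0 higher without no MYCN replicate 1, and 1 higher without no MYCN replicate 2 or MYCN 3A replicate 3. The wild type had 12 higher and 0 lower, against 10.9% and 11.3% of all tested genes. Among the 5 higher genes were NR4A1 at 0.51, PLAUR at 0.37, JUNB at 0.35 and SRF at 0.31. With wild type MYCN these genes had 0.78, 0.91, 0.55 and 0.56. JUNB was not called with the trend on transcript length removed (0.19, edgeR adjusted p = 0.177). FOSL2, an AP-1 subunit and the only lower gene of the list, had 72.5, 62.1 and 69.0 CPM without MYCN and 53.3, 50.4 and 50.5 CPM with MYCN 3A. With wild type MYCN FOSL2 had 115, 91.4 and 85.4 CPM, again with MYCN 3A lowest and no overlap. FOSL2 changed by -0.40 with MYCN 3A, a call lost without no MYCN replicate 1 (edgeR adjusted p = 0.0568), and by -0.92 against the wild type (SE 0.11). For feedback and output genes of the ERK kinase pathway the counts were 2 higher and 5 lower of 22 with MYCN 3A (9.09% and 22.7%). With wild type MYCN they were 14 and 1. Without no MYCN replicate 1 or 3 or any 1 of the MYCN 3A libraries, 2 to 3 were lower with MYCN 3A. The phosphatase gene DUSP6 changed by -0.46 and 0.51, and DUSP5 by 0.36 and 1.09, and both calls with MYCN 3A missed the threshold when some single library was dropped (edgeR adjusted p up to 0.0737 and 0.096). The call of DUSP5 was also lost with the trend on transcript length removed (0.26, edgeR adjusted p = 0.0852). The direct contrast called 15 lower and 0 higher of the AP-1 list and 15 lower and 2 higher of the ERK list, both 13 to 15 lower with single libraries left out.

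Of 26 interferon response genes 5 were lower (19.2%, against 12.8% of all tested genes) and 0 higher. OAS3, which makes the activator of RNase L, had 17.0, 11.6 and 14 CPM without MYCN, 9.70, 8.35 and 8.67 CPM with MYCN 3A and 41.2, 38.3 and 28.7 CPM with wild type MYCN. The 3 groups did not overlap, again with MYCN 3A lowest. OAS3 changed by -0.67 (SE 0.17, edgeR adjusted p = 0.00652), a call lost without no MYCN replicate 1 (adjusted p = 0.0637), and by -2.01 against the wild type (SE 0.17, edgeR adjusted p = 1.3e-08). IFIT1, an antiviral RNA-binding protein, changed by -1.22 and by -0.96 with the wild type, STAT2, a transducer of interferon signals, by -0.93 and PARP9 by -0.71. Without no MYCN replicate 1 the list had 2 lower, and PARP9 was not called.

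**Figure D3:**
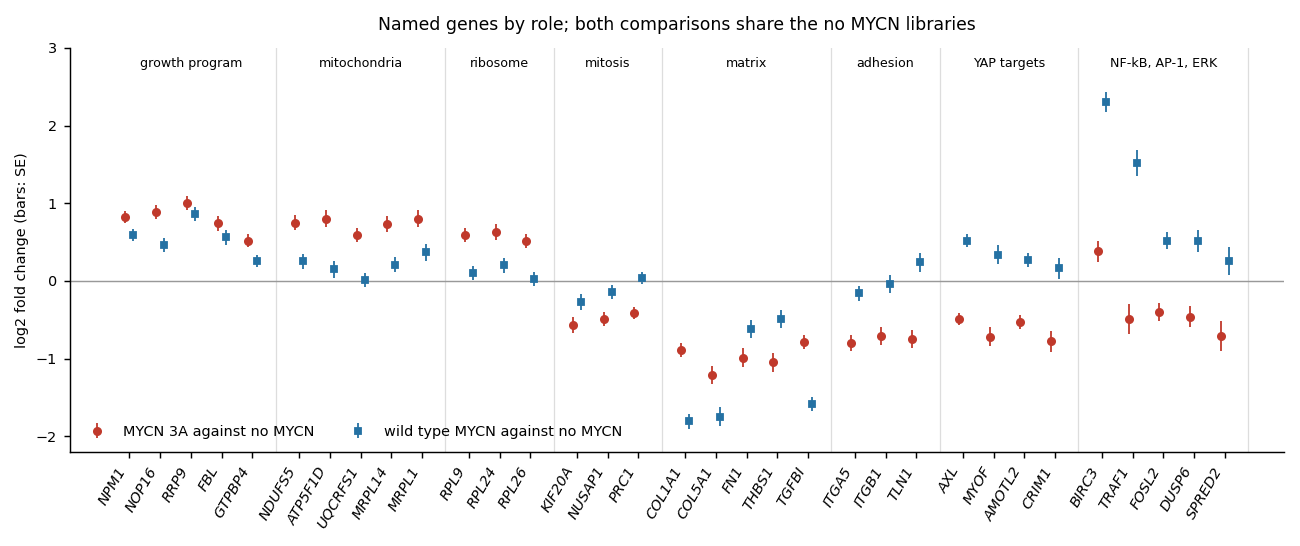
Log2 fold changes, with bars for the SE, of named genes grouped by role, for MYCN 3A (red circles) and wild type MYCN (blue squares) against the same 3 no MYCN libraries. Growth and mitochondrial genes lie above 0 with MYCN 3A, the 5 matrix genes shown (COL1A1, COL5A1, FN1, THBS1 and TGFBI) lie below 0 with both forms, and AXL, at -0.49 and 0.52, is an example of the YAP targets on opposite sides.

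Several core subunits of the nuclear exosome were higher with MYCN 3A, and the catalytic subunit EXOSC10 was lower in a call that depended on single libraries. Of 28 genes for the exosome and its targeting complexes 8 were higher and 2 lower with MYCN 3A (median 0.14). These are 28.6% and 7.14%, against 12.7% and 12.8% of all tested genes. Wild type MYCN had 7 and 0 (median 0.15), against 10.9% and 11.3% of all tested genes. The core subunit EXOSC7 had 48.7, 56.3 and 61.4 CPM without MYCN and 81.2, 92.2 and 101 CPM with MYCN 3A, a rise of 0.72 (SE 0.12, edgeR adjusted p = 1.7e-04) with no overlap. EXOSC4 rose by 0.61, EXOSC5 by 0.59, EXOSC9 by 0.45 and EXOSC3 by 0.35. The calls of EXOSC8 at 0.36, EXOSC2 at 0.24 and MPHOSPH6, a cofactor of the complex, at 0.40 did not hold in every fit that dropped a library, and 5 genes were higher without no MYCN replicate 1 or 2. That of MPHOSPH6 was also lost with the trend on transcript length removed (0.27, edgeR adjusted p = 0.129). EXOSC4 had -0.20 with wild type MYCN and was higher in the mutant (0.81, SE 0.15, edgeR adjusted p = 2.6e-04).

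EXOSC10 (ENSG00000171824, chromosome 1, 11126675 to 11159938, hg19) had 90.1, 83.7 and 69.5 CPM without MYCN, 62.6, 57.1 and 64.9 CPM with MYCN 3A and 106, 91.5 and 82.6 CPM with wild type MYCN. The MYCN 3A libraries were below all 6 others, though no MYCN replicate 3 came near them. EXOSC10 changed by -0.40 (SE 0.11, edgeR adjusted p = 0.00954), a call lost when no MYCN replicate 1 or MYCN 3A replicate 2 was dropped (edgeR adjusted p up to 0.0787). Against the wild type it was lower by -0.60 (SE 0.11, edgeR adjusted p = 2.5e-04), a call that held with each single library left out (edgeR adjusted p up to 0.00357). The other gene of the list that was lower was TENT4A, a noncanonical poly(A) polymerase, at -0.31 (SE 0.11, edgeR adjusted p = 0.0416). It missed the threshold with RLE scaling, with no filter on low counts and in fits that dropped a library (edgeR adjusted p up to 0.146). With the trend on transcript length removed TENT4A had -0.24 (edgeR adjusted p = 0.1).

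Noncoding classes that hold known exosome substrates had small shares of called genes in this polyadenylated RNA, where their low counts limit the calls. Of 293 tested antisense transcripts, picked by symbol, 13 were higher (4.44%) and 4 lower (1.37%), both shares below those of all genes, and the median was 0.01. Without no MYCN replicate 1 or 2 or MYCN 3A replicate 2 or 3, 5 to 8 were higher. Of 141 long intergenic noncoding RNAs 6 were higher and 8 lower (4.26% and 5.67%), and 2 to 4 were lower without any 1 of the no MYCN libraries or without MYCN 3A replicate 2 or 3. Wild type MYCN had 19 higher and 14 lower of the 141, and 9 and 16 of the antisense transcripts. In the direct contrast 14 of the 141 were higher and 18 lower in the mutant, and 22 and 10 of the antisense transcripts. LINC01060 had 4.65, 4.25 and 5.83 CPM without MYCN, 11.9, 12.3 and 12.9 CPM with MYCN 3A and 3.81, 5.02 and 4.45 CPM with wild type MYCN. It rose by 1.33 (SE 0.19, edgeR adjusted p = 6.4e-05) and was above the wild type by 1.49 (SE 0.20). LINC03057 rose by 0.68 and had -0.43 with the wild type, with a direct difference of 1.11 (SE 0.13, edgeR adjusted p = 1.1e-06).

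Host genes of small nucleolar RNAs had 11 of 25 higher (44%, against 12.7% of all tested genes) and 0 lower (median 0.29), with SNHG15 at 0.76, SNHG7 at 0.60, SNHG5 at 0.47 and SNHG16 at 0.38. Without no MYCN replicate 1 or 2 or MYCN 3A replicate 2, 4 to 5 were higher. Of 57 snoRNA and scaRNA genes, whose mature products mostly lack a poly(A) tail, 1 was higher and 0 lower. MIR17HG, the host of the miR-17 cluster, rose by 0.85 (SE 0.20, edgeR adjusted p = 0.00307).

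Some genes were called against both other groups in the same direction. Among genes with a symbol, a mean log2 CPM of at least 3 and MYCN 3A and no MYCN ranges apart, 1632 were called higher and 1514 lower against no MYCN. Of these, 806 were also called higher than wild type MYCN, and 758 also lower. Ranges apart from the wild type were not required, and the MYCN 3A libraries were shared by both contrasts. NT5M, a mitochondrial nucleotidase, had 8.18, 11.6 and 11 CPM without MYCN, 16.8, 18.3 and 20.8 CPM with MYCN 3A and 5.64, 9.24 and 7.27 CPM with wild type MYCN. NAA38, a subunit of an N-terminal acetyltransferase, rose by 0.92 over no MYCN and 0.88 over the wild type, MPST, an enzyme that makes hydrogen sulfide, by 0.79 over each, and PEG10 by 1.28 and 1.09. Among the genes below both, FAT1, a giant cadherin, changed by -1.0 and -1.05, HCFC1, a chromatin factor that binds MYC, by -1.02 and -1.24, RAB27B, a GTPase of vesicle secretion, by -1.0 and -1.16 and ATP10D, a lipid flippase, by -0.95 and -1.06. Of all 3806 genes called with MYCN 3A, 1991 (52.3%) also differed from wild type MYCN. The same MYCN 3A libraries chose these genes and enter the contrast with the wild type, so the share is a description. The counts without single libraries ranged from 1180 to 2337 of the genes called there.

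The changes with MYCN 3A went with transcript length. In the shortest decile of tested genes, with 53 to 955 exonic bases, the median log2 fold change was 0.23, and in the longest decile, with 9343 to 91667 bases, it was -0.27. Across the deciles the share of genes called lower went from 2.41% to 28.8%, and the share called higher from 22.6% in the next shortest decile to 3.35% in the longest. The median exonic length was 2974 bases for higher genes, 6553 for lower genes and 4153 for all tested. The difference of medians between the shortest and longest deciles was 0.19, 0.19 and 0.32 in the MYCN 3A libraries, -0.26, -0.12 and -0.06 in the no MYCN libraries and -0.33, -0.03 and 0.12 in the wild type libraries. Ribosomal protein, respiratory chain and mitochondrial ribosome genes are short (median 2917, 2263 and 2464 bases) and collagen, laminin and integrin genes long (8738, 8273 and 7452 bases). Wild type replicate 1 stood farthest from the MYCN 3A libraries on this measure.

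With the trend of level on length taken out of each library, chosen after seeing the data, 1994 genes were higher (13.4%) and 1428 lower (9.57%), and 1472 and 1211 of them were among the calls above. Under that setting 66 of 78 ribosomal protein genes, 45 of 63 respiratory chain, 49 of 73 mitochondrial ribosome, 40 of 55 MYC target and 38 of 52 ribosome biogenesis genes were higher. In the other direction 13 of 21 collagen chains, 6 of 12 laminins and nidogens, 12 of 31 integrin and focal adhesion genes, 11 of 23 YAP targets and 25 of 44 mitosis genes were lower. Pseudogenes went from 93 higher and 15 lower of 885 to 32 and 30, and snoRNA hosts from 11 to 6 higher. In the direct contrast with the wild type, 38 ribosomal protein genes, 36 of the respiratory chain and 36 of the mitochondrial ribosome were higher in the mutant and 14 integrin and focal adhesion genes lower. EXOSC10 had -0.29 (edgeR adjusted p = 0.0328). Promoters with CACGTG made up 14% of the genes higher and 8.37% of those lower under this setting.

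**Figure D4:**
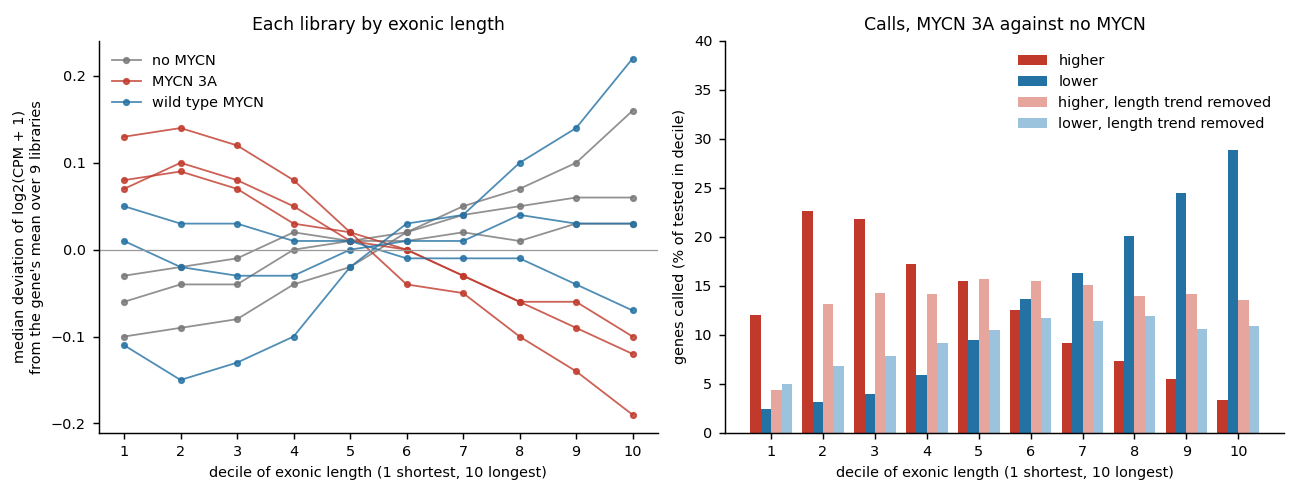
Left, the median deviation of log2(CPM + 1) from each gene's mean over 9 libraries, by decile of exonic length, with 1 line a library; the 3 MYCN 3A lines (red) start highest at short genes and end lowest at long genes. Right, the percent of genes called higher and lower with MYCN 3A in each decile, as fitted and with the length trend removed, where the lower calls at 28.8% in the longest decile become 10.9%.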

How the data were processed

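Polyadenylated RNA of SHEP cells was measured in 9 libraries, 3 each labelled no MYCN, MYCN 3A and wild type MYCN. The deposited values are raw counts per gene, not normalized, and the authors made them with featureCounts 2.0.3 on Ensembl GRCh37 gene models, per the file headers. The headers also give counting by strand and an option that lets a read count for every gene it overlaps. STAR 2.7.10a and hg19 are named in the submitters' processing notes. Columns were joined to samples by group and replicate number, and the column name for MYCN mutant was read as MYCN 3A. Of the low counts (1 to 10), 74.2 to 77.1% were even, so both read ends of a pair appear to be counted, and counts are not independent molecules.

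All 9 libraries entered a single fit with edgeR 4.0.16 (filterByExpr, TMM scaling, robust quasi-likelihood F test, Benjamini-Hochberg adjustment at 0.05) in R 4.3.3. The common biological coefficient of variation was 0.108. The script was tested on simulated data. Symbols came from a name table by Ensembl ID, which matched 51996 of 57905 genes. Libraries of a group differed by more than sampling noise (chi-square per degree of freedom of 5.15 to 13.4). Alternatives were DESeq2 1.42.0, other scalings, no filter, a fit of 6 libraries, a replicate block and libraries left out. A lowess offset on exonic length, and leaving out wild type libraries, were added after seeing the data.

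The members, the gene lists and the tests were chosen with earlier results of these data known. The rule for named genes takes MYCN and EXOSC10, the 12 top changes each way among called genes that have a symbol, an average log2 CPM of 3 or more and groups that do not overlap, up to 5 members with the smallest p of each list, all called members of the exosome and MYC network lists, and the 8 largest each way that differ from both other groups. A few genes that this rule names are not reported here. Of 23 tested MYC network genes 2 were higher (MAX and HDAC2) and 4 lower (MYC, SIN3A, USP28 and TRRAP). The calls of USP28 and TRRAP were lost without some single libraries, and that of TRRAP with the length offset (-0.20, edgeR adjusted p = 0.177). Over all tested genes 12.7% were higher and 12.8% lower, which is the share to set beside these counts and those that follow. The other lists had, higher and lower, 7 and 2 of 36 splicing factors, 5 and 1 of 18 one-carbon enzymes, 5 and 2 of 32 tRNA synthetases, 3 and 1 of 18 amino acid transporters, 5 and 3 of 26 glycolysis, 3 and 6 of 26 cholesterol, 2 and 2 of 26 p53, 0 and 1 of 10 histone, 4 and 2 of 19 antigen presentation, 2 and 6 of 25 mesenchymal factor, 0 and 0 of 8 adrenergic, 4 and 3 of 21 NRF2, 2 and 1 of 17 hypoxia and 0 and 5 of 27 lysosome genes.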

Additional observations from a re-analysis of the deposited data

How the results depend on the processing

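Among 275 named genes, 0 changed direction under any alternative. The largest loss of calls came without no MYCN replicate 1 (39 lost), without MYCN 3A replicate 3 (28) and without no MYCN replicate 2 (25). With the length trend removed 21 were lost, or 23 of 273 in the fit of 6 libraries. Other scalings lost 2 (RLE) and 12 (library totals), and DESeq2 lost 2 of 273. The number of genes higher with MYCN 3A, 1893 as reported, was 1232 with library totals and 1144 to 2163 with single libraries left out. The number lower, 1913, was 2928 with library totals and 1022 to 2288 with single libraries left out, and 2040 higher and 1674 lower with DESeq2. Of the called genes, 1991 differed from wild type MYCN, and 1180 to 2337 did with single libraries left out. Of the lists given by their counts alone, those with 5 or more called genes that moved by over 1.5 times were splicing factors (7 higher, 2 to 4 with single libraries left out), one-carbon enzymes (5 higher, 3), tRNA synthetases (5 higher, 2 to 3), cholesterol genes (6 lower, 3) and mesenchymal factors (6 lower, 3). Counts under 5 moved as much in several lists, such as NRF2 genes (4 higher and 3 lower, 2 and 0 without no MYCN replicate 2), MYC network genes (4 lower, 2 without MYCN 3A replicate 3) and p53 targets (2 lower, 0 without no MYCN replicate 1 or MYCN 3A replicate 3). Where a library is left out, fewer samples enter the test, and a pair of libraries stands for its group. Libraries of the no MYCN and MYCN 3A groups with the same replicate number deviated together at r = 0.12, -0.03 and 0.06. Those with different numbers did so at -0.12 to 0.06. The ribosomal protein median was highest in replicate 3 of each group (-0.07, -0.02 and 0.09 without MYCN, 0.37, 0.37 and 0.49 with MYCN 3A, -0.08, 0.18 and 0.31 with wild type MYCN). So was the difference of medians between the shortest and longest deciles of exonic length, at -0.06 without MYCN, 0.32 with MYCN 3A and 0.12 with wild type MYCN. The main fit has no term for replicate number, so an effect shared by number would enter its error. Whether the libraries share an effect by number was not settled, and the labels describe no pairing. With the replicate block 2333 genes were higher and 2461 lower, and 2788 of the called genes differed from the wild type. Depth limits the noncoding classes, where counts are low, and the 3 libraries a group limit the rest.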
